A study of Mus musculus with 6 samples.

Results

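Regions of methylated, CpG-dense DNA that were listed at both times with one short hairpin RNA against Plcg1, and at neither time with the other, were compared between the hairpins in I/11 erythroblasts. The 4 peak lists were merged into 10085 regions by an overlap of at least 1 bp. Of these, 120 regions (1.19% of all regions) were listed at 0 h and 24 h with hairpin 133 only, and 89 regions (0.882%) at 0 h and 24 h with hairpin 14 only. By the same rule applied to gene windows, the body and 10 kb on each side, 247 of 49943 RefSeq genes (0.495%) were listed with hairpin 133 only and 177 (0.354%) with hairpin 14 only. Of 21887 protein-coding genes, these were 179 (0.818%) and 118 (0.539%).

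I/11 is a murine erythroblast line established from the liver of p53-deficient mouse fetuses at E12.5, a background that every library here shares. Cells were infected with lentivirus carrying hairpin 133, hairpin 14 or a scrambled hairpin, and were selected for 48 h with 1 ug/ml puromycin. The 0 h cells were harvested 72 h after infection from expansion medium with 1 U/ml erythropoietin (Epo), stem cell factor and dexamethasone. The 24 h cells were harvested 96 h after infection, after 24 h in medium with 10 U/ml Epo and holo-transferrin. Of the 6 libraries of the series, the 2 with the scrambled hairpin were not analysed here. Each combination of hairpin and time is a single library, so nothing below measures the spread between cultures, and every test compares regions of these libraries and not the hairpins as conditions. DNA methylation libraries do not measure transcripts, so neither the knockdown of Plcg1 nor the erythroid identity of the cells can be checked in them.

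Phospholipase C gamma 1, the product of Plcg1, cleaves a membrane lipid into diacylglycerol and inositol trisphosphate, which activate protein kinase C and release calcium, and it acts downstream of the Epo receptor. Hairpins of different sequence against one gene serve as checks on each other, because each can also act on other messenger RNAs. Methylation of cytosine in CpG is usually sparse at CpG-rich promoters and common in gene bodies and repeats. The capture protein MBD2-Fc binds methylated CpG, and high salt releases the most tightly bound DNA, in which methylated CpG is dense. Each deposited peak is an interval with no score and no strand. The sources used here do not say whether a listed interval holds more or less methylated DNA than the scrambled control, so no region below has a direction.

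Promoter sequences are shown for regions that reached a gene start, which are a small part of either set. Bases of the other regions were not analysed here. The sequences were taken from the RefSeq promoter table (assembly GRCm38.p6, coordinates as in mm10) and hold 250 bases before to 50 bases after each start. Only the part that lies upstream of the start and inside the listed region is given, on the strand of the gene, in lower case with every CpG in capitals. Cybrd1, which encodes a ferric reductase, Npdc1, a neural proliferation and differentiation control gene, and Zdhhc9, a protein palmitoyltransferase gene, were listed with hairpin 133. Cttnbp2nl, a paralog of a cortactin-binding protein gene, was listed with hairpin 14. These 4 follow the rule for named genes.
Cybrd1, chr2:71117982-71118053, plus strand: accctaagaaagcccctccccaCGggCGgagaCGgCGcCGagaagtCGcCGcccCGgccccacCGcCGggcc
Npdc1, chr2:25403036-25403049, plus strand: caggtggagCGCGc
Zdhhc9, chrX:48208703-48208952, minus strand: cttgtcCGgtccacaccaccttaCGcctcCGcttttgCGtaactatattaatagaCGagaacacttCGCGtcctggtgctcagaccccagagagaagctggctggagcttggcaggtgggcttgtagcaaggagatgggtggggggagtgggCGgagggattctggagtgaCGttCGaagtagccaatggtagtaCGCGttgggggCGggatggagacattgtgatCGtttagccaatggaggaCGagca
Cttnbp2nl, chr3:105052954-105053009, minus strand: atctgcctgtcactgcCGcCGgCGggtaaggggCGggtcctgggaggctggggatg
The stretches hold 10 CpG in 72 bases at Cybrd1, 2 in 14 at Npdc1, 15 in 250 at Zdhhc9 and 4 in 56 at Cttnbp2nl. At Zdhhc9 the peaks of 0 h and 24 h shared only 27 bp, so most of that stretch was listed at 1 time alone.

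Because that rule yields 1 promoter for hairpin 14, a further 3 were chosen after their values were seen, to put promoters of both hairpins side by side. The region at Rab6b, which encodes a small GTPase of membrane traffic, was listed with hairpin 133. A peak of hairpin 14 lay 174 bp from it. Regions at Slc37a1, which encodes a sugar-phosphate transporter, and Dlec1, named for its deletion in lung and esophageal cancer, were listed with hairpin 14. The nearest peaks of hairpin 133 lay 34.0 and 34.6 kb from them. None of these 3 genes is in the gene set of its hairpin.
Rab6b, chr9:103111970-103112073, plus strand: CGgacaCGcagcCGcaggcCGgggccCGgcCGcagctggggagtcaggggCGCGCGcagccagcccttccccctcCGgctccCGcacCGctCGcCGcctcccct
Slc37a1, chr17:31296159-31296223, plus strand: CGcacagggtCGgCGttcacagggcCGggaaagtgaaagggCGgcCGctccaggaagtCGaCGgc
Dlec1, chr9:119102420-119102508, plus strand: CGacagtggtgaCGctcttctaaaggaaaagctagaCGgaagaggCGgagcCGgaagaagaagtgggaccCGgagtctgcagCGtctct
In all, 13 of 120 regions of hairpin 133 (10.8%) and 7 of 89 of hairpin 14 (7.87%) overlapped a promoter window. In the crossed pairs 8.91% and 6.85% did so, and over all placed regions 451 of 10080 (4.47%). The windows reached with hairpins 133 and 14 held a median of 20 CpG (7 to 42) and 17 CpG (8 to 33). The median over all 32851 promoter windows was 7. At least 10 CpG were found in 92.3% and 85.7% of the windows reached with hairpins 133 and 14, and in 43.5% of all windows. Windows reached by the crossed pairs had medians of 15 and 15 CpG, with at least 10 in 77.8% and 100% of them, and windows reached by the regions of all 4 lists had a median of 21. These counts describe promoter windows and not the sets as a whole.

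The lists of hairpin 133 held 3900 peaks at 0 h and 2960 at 24 h. Those of hairpin 14 held 3437 and 2666. The regions of hairpin 133 were 3.08% of its 0 h list (exact binomial 95% interval 2.56 to 3.67) and 4.05% of its 24 h list (3.37 to 4.83). The regions of hairpin 14 were 2.59% (2.08 to 3.18) and 3.34% (2.69 to 4.09) of its lists. These intervals cover counting error only. The greater part of each list was thus not listed again with the same hairpin alone. Most of the regions listed with 1 hairpin at 0 h were in neither list at 24 h. This held for 2405 of 2693 regions (89.3%) with hairpin 133 and not 14, and for 1991 of 2231 (89.2%) with hairpin 14 and not 133.

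The measured background for a hairpin-specific pair is the crossed pair, listed with one hairpin at 0 h and with the other at 24 h. Hairpin 133 at 0 h was paired with hairpin 14 at 24 h in 101 regions, and hairpin 14 at 0 h with hairpin 133 at 24 h in 73. Among the 383 regions listed with exactly 1 hairpin at each time, 209 (54.6%, 49.4 to 59.6) had the same hairpin at both times and 174 were crossed. Of 221 regions with hairpin 133 at 0 h, 54.3% were with hairpin 133 at 24 h, against 45.1% of 162 regions with hairpin 14 at 0 h. The odds ratio was 1.45 (95% interval 0.945 to 2.22), and Fisher's exact test, two-sided, did not pass 0.05 (p = 0.0794). The interval holds 1, and also a ratio above 2. By comparison, 809 regions were shared by the hairpins at 0 h alone and 362 at 24 h alone.

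**Figure D1:**
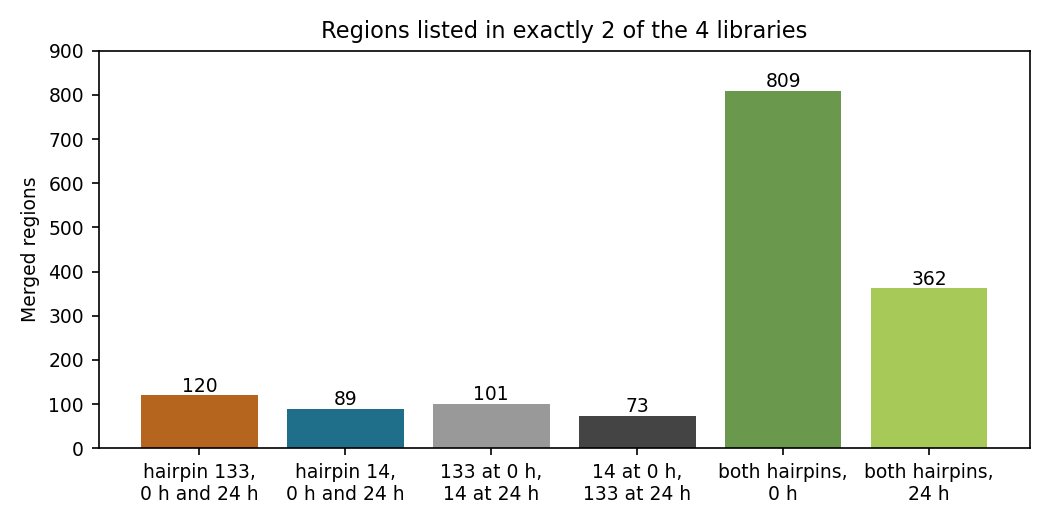
Number of merged regions (vertical axis) listed in exactly 2 of the 4 libraries, 1 bar for each pair of libraries. The 120 and 89 regions of 1 hairpin at both times lie close to the crossed pairs of 101 and 73, and all 4 lie below the pairs of the same time, 809 and 362.

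The 2 peaks behind a hairpin-specific region seldom had the same coordinates. In 2 of 120 regions of hairpin 133 and 2 of 89 of hairpin 14 the start at 24 h equalled that at 0 h, and the median offset between the starts was 13 bp and 8 bp. The crossed pairs had median offsets of 12 bp and 9 bp, with 3 and 1 identical starts. Pairs of the same time differed from all of these: 573 of 809 (70.8%, 67.6 to 73.9) at 0 h and 318 of 362 (87.8%, 84.0 to 91.0) at 24 h had identical starts. The sources used here do not say how peak positions were set, and the part of that step in these shares was not tested.

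Most offsets were nevertheless small against the peak width of 151 bp. They were at most 20 bp in 86 regions of hairpin 133 (71.7%) and 71 of hairpin 14 (79.8%). The least overlap was 27 bp, at Zdhhc9, for hairpin 133 and 83 bp for hairpin 14. Just outside the rule, the closest pairs that did not overlap lay 49, 50 and 54 bp apart for hairpin 133 and 43, 68 and 95 bp apart for hairpin 14.

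**Figure D2:**
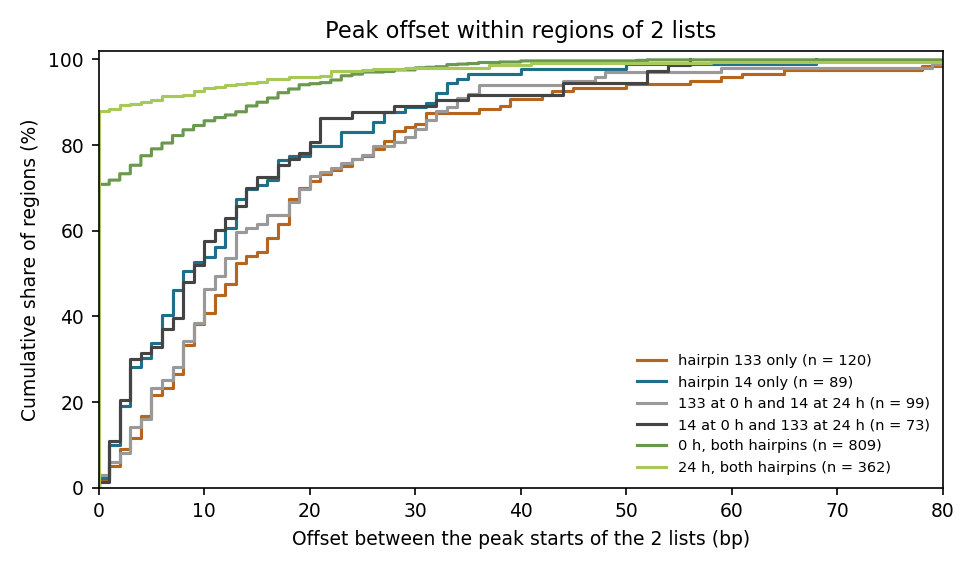
Cumulative share of regions (vertical axis, %) by the offset in bp between the starts of their 2 peaks (horizontal axis, drawn up to 80 bp), 1 line for each pair of libraries. The lines of the hairpin-specific and crossed pairs rise together from near 0, while the lines of the same-time pairs start at 70.8% and 87.8%.

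The other hairpin was often listed nearby. The nearest peak of the other hairpin at either time lay a median of 59.7 kb from a region of hairpin 133 and 35.7 kb from a region of hairpin 14. It lay within 1 kb for 12 of 120 regions (10%) and 7 of 89 (7.87%), and within 10 kb for 30 (25%) and 27 (30.3%). For a part of the regions, absence from the other hairpin's lists thus means absence at those bases and not from the neighbourhood.

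**Figure D3:**
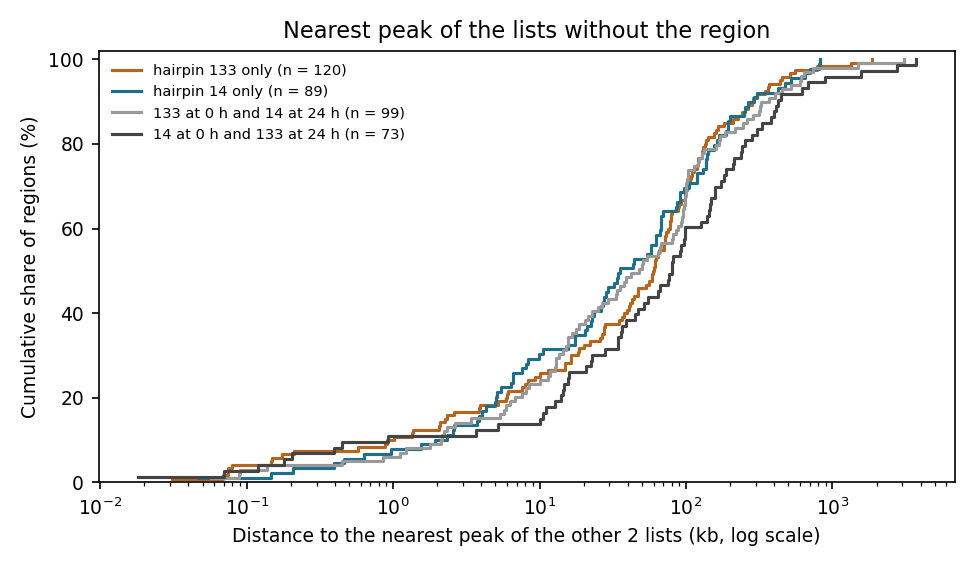
Cumulative share of regions (vertical axis, %) by the distance in kb, on a log scale, to the nearest peak of the 2 lists that lack the region. The medians are 59.7 kb for hairpin 133 and 35.7 kb for hairpin 14, and 41.9 and 79.6 kb for the crossed pairs.

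Both sets lay in the same kinds of place. A protein-coding gene body held 77 of 120 region centres of hairpin 133 (64.2%) and 56 of 89 of hairpin 14 (62.9%). The body of another kind of gene held 11 (9.17%) and 9 (10.1%), and 21 (17.5%) and 15 (16.9%) lay within 10 kb of a gene. A protein-coding gene end lay within 1 kb of 29 (24.2%, 16.8 to 32.8) and 24 (27.0%, 18.1 to 37.4). None of 5 position classes differed between the hairpins by Fisher's exact test (adjusted p = 1 for each). The odds ratio at gene ends was 0.863, and within 500 bp of an end it was 1.13, with neither past the threshold. The gene table has neither exons nor strand, so exons, introns and untranslated regions could not be told apart.

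Compared with the 237 placed regions of all 4 lists, the 209 regions of both hairpin sets lay less often at gene ends and starts and more often far from genes. By Fisher's exact test they lay within 1 kb of a protein-coding gene end in 25.4% against 45.1% (adjusted p = 9.37e-05), and within 1 kb of a start in 23.0% against 37.1% (adjusted p = 0.00450). They overlapped a promoter window in 9.57% against 17.7% (Fisher's exact test, adjusted p = 0.0240), and lay over 10 kb from any gene in 9.57% against 2.53% (adjusted p = 0.00450). These tests were adjusted over 7 classes and added after the positions had been seen. Beside all 10080 placed regions the order was the opposite. Of those, 13.2% lay within 1 kb of a gene end and 9.88% within 1 kb of a start. A promoter window was overlapped by 4.47%, and 16.1% lay over 10 kb from any gene. The difference from all regions was not tested. Against the 174 crossed regions, none of the 7 classes passed Fisher's exact test (smallest adjusted p = 0.397).

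Of 16 chromosomes tested, chromosome 1 differed between the sets. It held 1 region of hairpin 133 and 11 of hairpin 14 (Fisher's exact test, odds ratio 0.0596, adjusted p = 0.00703). The lists as a whole did not differ in this way, since that chromosome had 248 peaks of hairpin 133 and 222 of hairpin 14 at 0 h, and 158 against 157 at 24 h. The crossed pairs had unequal counts there too. Hairpin 133 at 0 h with hairpin 14 at 24 h had 8 of its 101 regions on chromosome 1. Hairpin 14 at 0 h with hairpin 133 at 24 h had 2 of its 73. The split of the crossed regions was not tested. The call was lost when peaks up to 200 bp apart were merged (2 against 10, Fisher's exact test, adjusted p = 0.0826), up to 1 kb apart (2 against 9, adjusted p = 0.165) and in 100 kb bins (6 against 7, adjusted p = 1). The region of hairpin 133 lies in Mgat5, which encodes a glycosyltransferase of N-glycan branching, 0.877 kb from a peak of the other hairpin. Regions of hairpin 14 lie in Tfap2d, Fev, Lhx9 and Lhx4, which encode transcription factors, and in Arhgef4, Adam23, Rnf152, Gpr25 and Vash2. Peaks of hairpin 133 came within 0.147 kb of the region in Gpr25 and 0.392 kb of that in Rnf152. Those chromosome 1 genes other than Arhgef4 and Adam23 were named after their values were seen.

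Chromosome 10 held the most regions of both hairpins, 23 (19.2%) and 15 (16.9%), with 27 crossed regions and 10.8% of all peaks. Of the regions of the hairpin sets there, 21 of 23 and 14 of 15 lay beyond 70 Mb. Crossed regions lay mostly there too. The counts were 15 of 19 for hairpin 133 at 0 h with hairpin 14 at 24 h. For hairpin 14 at 0 h with hairpin 133 at 24 h they were 6 of 8. A place beyond 70 Mb was thus not particular to the hairpin sets. Chromosome 2 held 12 and 2 regions and chromosome 17 held 2 and 8, and neither passed Fisher's exact test (adjusted p = 0.148 for each).

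**Figure D4:**
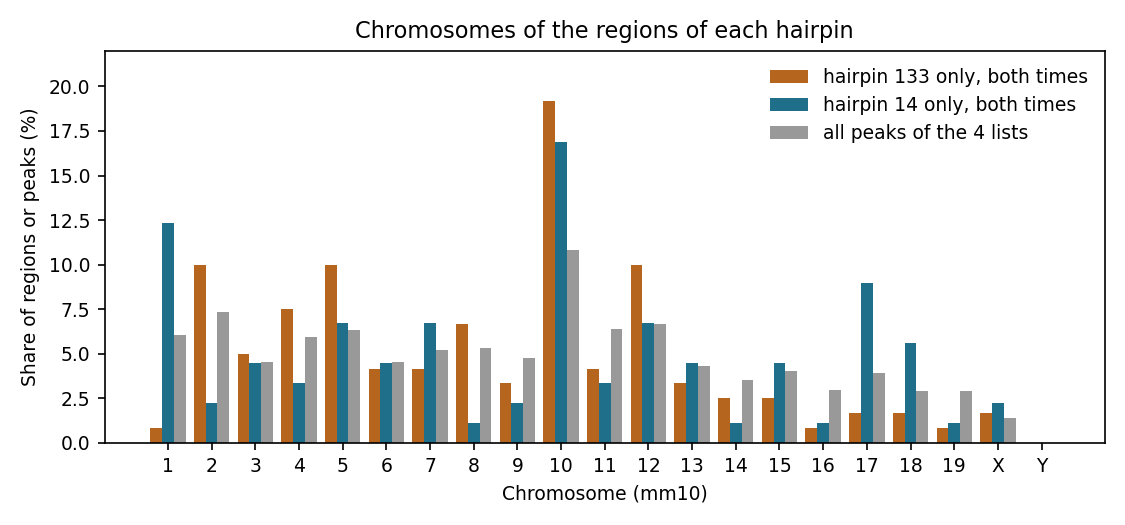
Share (vertical axis, %) of the 120 regions of hairpin 133, of the 89 regions of hairpin 14 and of all 12963 peaks on each mm10 chromosome (horizontal axis). Chromosome 10 is highest for both hairpins at 19.2% and 16.9%, and on chromosome 1 the shares are 0.833% and 12.4%.

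Plcg1 itself (chr2:160731310-160775760) had 0 peaks in every list, in its body and within 10 kb. The gene sets of the hairpins were about as large as those of the crossed pairs: 247 and 177 genes against 233 (0.467% of all genes) and 221 (0.443%). Among protein-coding genes the crossed pairs gave 164 (0.749%) and 148 (0.676%). Together, 424 genes followed a hairpin and 454 were crossed. An overlapping pair of peaks stood behind 95 genes of hairpin 133 (38.5%) and 62 of hairpin 14 (35.0%), and the rest had separate peaks at 0 h and 24 h. Neighbouring windows share peaks, and the genes of each set come from 192 and 134 separate loci. The protein-coding members were long, with a median of 58.6 kb and 49.8 kb against 17.2 kb over all protein-coding genes, and those of the crossed pairs were as long (58.0 and 62.0 kb).

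Genes with an overlapping pair in the body, in order of distance to a gene end, make up the named members of hairpin 133. Distances are from the centre of the region. Cybrd1 had 1 peak at 0 h and 1 at 24 h with hairpin 133 and 0 at both times with hairpin 14, and its region was centred 0.011 kb downstream of the gene start. Npdc1 had the same counts, with the region at 0.069 kb, and Zdhhc9 had them with a region 0.129 kb upstream of the start. The peaks of 0 h and 24 h at Zdhhc9 shared only 27 bp, the least overlap in the set of hairpin 133. All 3 genes are thus listed at a gene end with hairpin 133, with the nearest peak of hairpin 14 at 53.1 kb or more.

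Transcription factor and repressor genes among these members included Zfhx4, Osr1 and Zfp90. The region of Zfhx4 lay 0.125 kb from a gene end, that of Osr1 0.265 kb and that of Zfp90 3.60 kb, and each had 0 peaks with hairpin 14. Signalling genes included Dgkz, Grb10 and Adrb3. Dgkz encodes a diacylglycerol kinase, which removes one of the products of phospholipase C, and its region (chr2:91976015-91976181) lay 0.345 kb from a gene end. Grb10, an imprinted adaptor gene, had its region 0.881 kb downstream of the start. Adrb3, the beta-3 adrenergic receptor gene, had it 2.24 kb from an end. Each of these had 1 peak at each time with hairpin 133.

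Pf4, which encodes platelet factor 4 of megakaryocytes, is 0.949 kb long and had its region (chr5:90772537-90772713) 0.190 kb downstream of the start. The same region brought its neighbour Ppbp, another platelet chemokine gene, into the set from 2.56 kb outside. Fscn1, an actin-bundling protein gene, and Col4a2, a collagen IV gene, had regions 0.419 and 0.933 kb downstream of the start. Trim62, Sdr39u1, Dmxl2 and Kcns3 had them at 0.313, 0.273, 0.500 and 0.757 kb downstream. Adh1, an alcohol dehydrogenase gene, had it at 3.31 kb. Ak8, an adenylate kinase gene, had a start 0.005 kb from the centre of its region. Pcdhgc5, in a protocadherin cluster, had 2 peaks at each time, and hairpin 14 was listed 14.9 kb from its region.

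With hairpin 14, Capn11, a calpain gene, had 1 peak at 0 h and 1 at 24 h, and 0 with hairpin 133, with its region 0.103 kb from a gene end. The same counts held for Cttnbp2nl, with its region 0.029 kb from the start, and for Rundc3a, with its region 0.371 kb from a gene end. Arhgef4, a guanine nucleotide exchange factor gene, and Adam23, a disintegrin family gene, had 2 peaks at 0 h and 1 at 24 h. These regions lay 0.552 kb and 149 kb downstream of the start, the second being 1.09 kb from the other end of Adam23.

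Among the 20 genes taken for hairpin 14 by distance to a gene end, transcription factor genes included Klf15, a Kruppel-like factor gene, and Nr4a3, an orphan nuclear receptor gene, with regions 0.659 and 2.96 kb downstream of the start. Fgf3, which encodes a fibroblast growth factor, had its region (chr7:144839198-144839361) 0.667 kb downstream. Cyp26b1, whose enzyme degrades retinoic acid, had 1 peak at 0 h and 2 at 24 h, and so did Apbb1. Their regions lay 9.50 and 2.67 kb downstream of the start.

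Enzyme and repair genes of hairpin 14 were listed deeper in their bodies. Cul4b, a ubiquitin ligase scaffold gene, had its region 11.7 kb downstream of the start, Ppm1b, a phosphatase gene, at 4.61 kb, and Mark3, a kinase gene, at 55.9 kb. Fancm, a Fanconi anaemia helicase gene, had it at 30.1 kb, and Scnn1b, a sodium channel subunit gene, at 34.5 kb. Tcp11l2, Tmtc1, Erich3 and Caln1 had regions 0.621, 1.25, 3.27 and 8.41 kb from a gene end. In every named gene of these groups, the other hairpin had 0 peaks in the body and within 10 kb of it, as the rule requires.

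A region of a hairpin did not always make the gene that holds it a member. Of 142 protein-coding genes with a region of hairpin 133 in the window, 84 also had a peak of the other hairpin and were left out. Of 82 genes with a region of hairpin 14, this was so for 49. The sets even met in 7 protein-coding genes that held a region of each hairpin, namely Sycn, Nccrp1, Pcdh15, Lrrc75b, Lin7a, Prkch and Pdzrn4, with both regions in the body in 6. In Nccrp1 the regions lay 2.61 kb apart and in Lrrc75b 9.74 kb. In Prkch, a protein kinase C gene of the pathway downstream of phospholipase C, they lay 72.1 kb apart, and the gene had 6, 5, 5 and 2 peaks in the lists of 133 at 0 h, 14 at 0 h, 133 at 24 h and 14 at 24 h. Genes that are not protein-coding were not counted here.

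Over 25 gene lists with 3146 genes, 27 members (0.858%) were in the gene set of hairpin 133 and 7 (0.223%) in that of hairpin 14, beside 0.495% and 0.354% of all genes and 0.818% and 0.539% of protein-coding genes. Of the 3146 genes, 1459 are olfactory and vomeronasal receptors, with 0 in either set and at most 10 with a peak in any library. That list lowers the shares over all lists. The closeness of 0.858% to the share over protein-coding genes is therefore not read as a result. The crossed pairs took 18 and 18 members (0.572% each). Hairpin 133 had more members in 15 lists and hairpin 14 in 2, and 8 lists had 0 in both. The lists are not independent, since Kit counts both for Epo receptor and Kit signalling and for stem and progenitor regulators. Several lists rest on 1 gene, and the gene set of hairpin 133 was the larger (179 against 118 protein-coding genes). With 50 kb in place of 10 kb on each side the members numbered 37 and 18, beside 25 and 32 crossed. Overlapping peaks at both times stood behind 11 of the 27 and 2 of the 7. The other 21 members had separate peaks at 0 h and 24 h.

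Of 73 genes of the phospholipase C pathway, protein kinase C and calcium signals included, 3 were in the set of hairpin 133 (Camk2a, Dgkz and Ppp3ca) and 1 in that of hairpin 14 (Plcd1), and 1 was crossed. Ppp3ca, which encodes a calcineurin catalytic subunit, had 1 peak at each time, and these lay 200.2 kb apart in the body. Camk2a, a calmodulin-dependent kinase gene, had them 14.2 kb apart. Plcd1, a phospholipase C gene of the delta class, was a member through the region at the Dlec1 promoter shown above, 8.92 kb outside its body. Dgkz was thus the list's member with an overlapping pair of peaks in its own body.

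Of 43 genes of Epo receptor and Kit signalling, Kit was in the set of hairpin 133 and 2 genes were crossed. Kit, the stem cell factor receptor gene, had 1 peak at 0 h that lay 5.12 kb outside the gene and 2 at 24 h in its body, with 21.8 kb between the closest. Of 31 erythroid transcription factor genes, Zfpm1 was in the set of hairpin 133 and E2f2 and Runx1 in that of hairpin 14, and 1 gene was crossed. Zfpm1, which encodes the GATA cofactor FOG1, had its peaks 0.673 kb apart in the body. E2f2, a cell cycle factor gene, had 1 peak in the body at 0 h and 1 at 24 h just outside, 15.4 kb apart. Runx1, a haematopoietic factor gene, had 3 peaks in the body at 0 h and 1 at 24 h 3.23 kb outside. None of these 4 rests on the same bases at both times.

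Of 34 red cell membrane genes, Add2, an adducin gene, and Epb41l2, a paralog of the protein 4.1 gene, were in the set of hairpin 133, and 2 further genes were crossed. The region of Epb41l2 (chr10:25501505-25501664) was an overlapping pair, and the peaks of Add2 lay 75.3 kb apart. Of 44 genes of globins, haem synthesis and iron handling, 0 were in either set, so Cybrd1 stands outside that list. Among marker lists of other blood cells, 2 of 20 megakaryocyte genes (Pf4 and Ppbp, by 1 shared region) and 1 of 30 lymphoid genes (Tcf7) were in the set of hairpin 133. Of 30 myeloid genes, 0 were in either set and 1 was crossed.

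Of 25 genes of the machinery that processes short hairpins and microRNAs, Tnrc6a and Tnrc6c, which encode Argonaute partners, were in the set of hairpin 133 by peaks 56.9 and 21.4 kb apart. Drosha, the nuclear microRNA processing enzyme gene, was in that of hairpin 14 by peaks 19.9 kb apart, and 1 gene was crossed. Interferon response genes (37) and the DNA methylation machinery (31) had 0 members in either set, and 1 gene of the methylation machinery was crossed. From the cell cycle, apoptosis and p53 list (46 genes), Bcl2l11, a cell death gene, was in the set of hairpin 133 by peaks on either side of its body.

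Developmental, channel and zinc finger genes gave the rest. Lmx1a and Zfhx4 of 234 homeobox, paired, T-box, Sox and forkhead genes were among the members of hairpin 133, and Vax2 was in that of hairpin 14 by peaks 0.549 kb apart, and 5 and 1 of these genes were crossed. Of 132 potassium, sodium and calcium channel genes, Cacna2d4, Kcnab1, Kcnj6 and Kcns3 were in the set of hairpin 133 (3.03%). The set of hairpin 14 had 0 of them. Of protein-coding genes, 0.818% and 0.539% were in these sets, and 0 and 2 of the channel genes were crossed. The closest peaks at 0 h and 24 h lay 28.4 kb apart in Cacna2d4, 39.2 kb in Kcnab1 and 88.6 kb in Kcnj6. Kcns3 alone had an overlapping pair. Fgf3 of 110 morphogen genes was in the set of hairpin 14, and 3 and 4 were crossed. Epha2, Plxnc1, Cdh2, Pcdhgc5, Grb10, Zfp90 and Zfp960 were further members of hairpin 133 and Zfp870 of hairpin 14. Hox genes (39), neurotransmitter receptors (74), olfactory and vomeronasal receptors (1459) and housekeeping genes (20) had 0 in either set. Of the Hox genes 2 and 0 were crossed, and of the neurotransmitter receptors 2 and 1. Beside 0.818% and 0.539% of protein-coding genes, a count of 0 says little for a list of 20 to 74 genes.

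**Figure D5:**
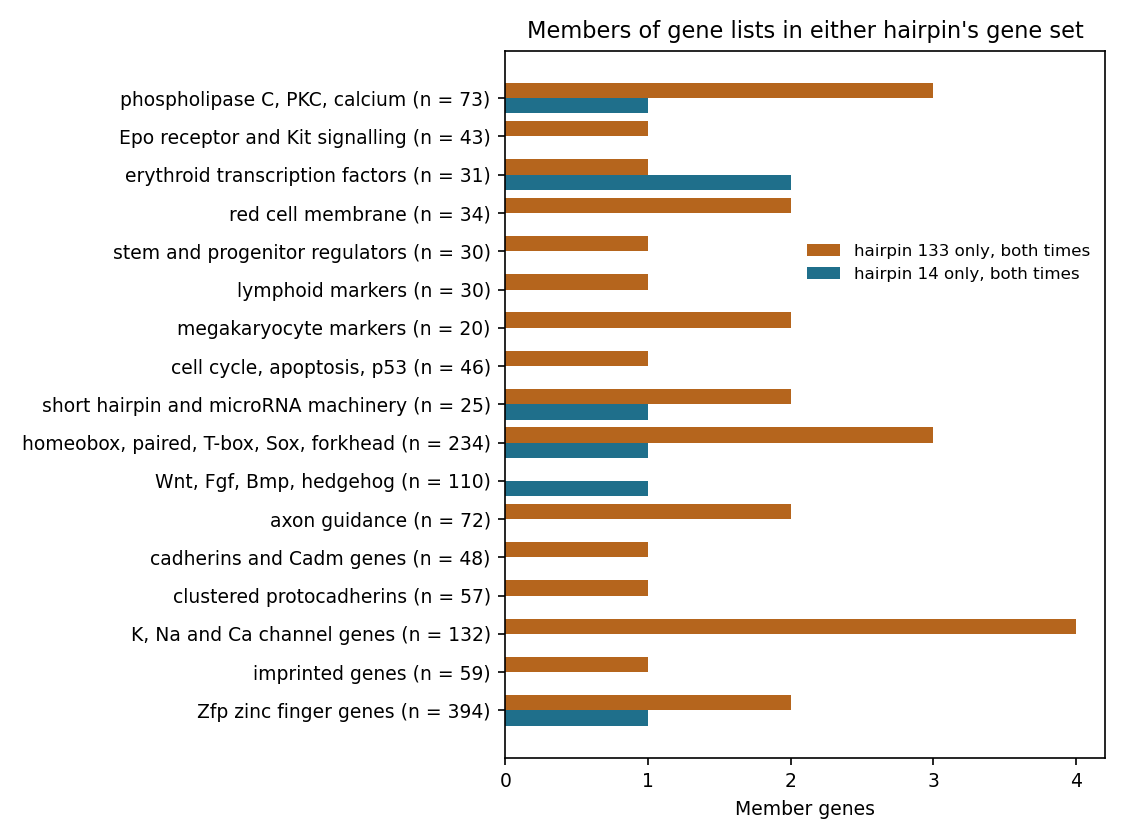
Number of member genes (horizontal axis) in the gene set of each hairpin, for the 17 gene lists with at least 1 member in either set, with the size of each list in brackets. Potassium, sodium and calcium channel genes have 4 members of hairpin 133 and erythroid transcription factors 2 of hairpin 14.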

How the data were processed

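Methyl-CpG capture libraries were made from 3 ug of sonicated DNA with 60 ug of the capture protein MBD2-Fc, and the 1 M NaCl eluate was sequenced, per the labels' protocols. The submitters' processing notes name BWA, Picard, SAMtools, HOMER and mm10; thresholds and control libraries for peak calling are not given in the sources used here. The deposited lists hold coordinates alone, with no count, score or depth, so depth is unknown and limits on methylation itself cannot be given. The 0-based starts of the lists were converted to 1-based. Peaks were 151 bp wide, except 1 of 120 bp.

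Peaks of the 4 lists were merged by overlap of 1 bp, and a region belonged to a hairpin when it was in both of its lists and in neither of the other's. Genes came from RefSeq on GRCm38.p6, on placed chromosomes, by a peak in the body or within 10 kb. Annotation left out peaks on unplaced contigs, at most 4 in any list. Fisher's exact tests were two-sided with Benjamini-Hochberg adjustment (SciPy 1.17.1, Python 3.11.15). The chromosome test took chromosomes with at least 5 regions in both sets together.

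Named genes were Plcg1 and, per hairpin, up to 20 protein-coding genes of the gene set that hold a region of the hairpin. They were ordered by number of regions, region in the body, distance to a gene end and symbol. Members of the 25 gene lists in either set were added, up to 6 per list and hairpin. Promoter sequences were to come from the first 3 such genes a hairpin. Predicted gene names were not used, and some genes that the rule takes are left out of the text. The members and lists were chosen with earlier results of these data known. The scripts were tested on simulated data with known regions. Alternatives of merging, window, evidence and distance are given in the closing section.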

Additional observations from a re-analysis of the deposited data

How the results depend on the processing

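The numbers of regions of hairpins 133 and 14 moved by less than 1.5 times when an overlap of 76 bp was asked (117 and 89), when peaks up to 200 bp (118 and 89) or 1 kb (124 and 91) apart were merged, and without chromosome 10 (97 and 74). In 100 kb bins they were 219 and 149. The odds ratio of hairpin at 0 h by hairpin at 24 h was 1.02 to 1.46 over the 5 alternatives, none past the threshold (Fisher's exact p from 0.0776 to 0.940). Alternatives for chromosomes, crossed genes and gene lists, and the distance to a gene start, were chosen after seeing the data. The number of chromosomes that passed was 1, and 0 with merging at 200 bp, at 1 kb (chromosome 1, 2 against 9 regions, Fisher's exact test, adjusted p = 0.165) and in 100 kb bins; the cause was not tested. With an overlap of 76 bp chromosome 1 passed Fisher's exact test (adjusted p = 0.00820). Genes of hairpins 133 and 14 and of the crossed pairs numbered 137, 97 and 264 by the gene body alone, 754, 499 and 1203 with 50 kb on each side, and 95, 62 and 143 by the same region at both times. Genes of the same hairpin exceeded crossed genes with 50 kb (1253 against 1203) and by the same region (157 against 143), and were fewer with 10 kb (424 against 454) and by the body (234 against 264). Members of gene lists numbered 34 (27 of hairpin 133 and 7 of hairpin 14), and 55 (37 and 18) with 50 kb on each side. The odds ratio at gene ends turned to 1.13 at 500 bp (Fisher's exact p = 0.843); the cause was not tested. No paired analysis was possible because each hairpin and time is 1 library and the lists hold no value per region to which a block could be fitted. A stricter peak threshold was not run because the lists hold no scores, and leaving out a library would end the rule itself.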

Other observations

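Some microRNA hairpins of RefSeq lay near regions of the hairpin-specific and crossed sets. Mir763 (chr10:120447991-120448110) lay within 10 kb of a region of hairpin 133, and Mir196a-1 (chr11:96265164-96265265), in a Hox cluster, lay within 10 kb of a region of hairpin 14. Among the crossed pairs, a region listed with hairpin 133 at 0 h and hairpin 14 at 24 h overlapped Mir574 (chr5:64970318-64970395), and a region listed with hairpin 14 at 0 h and hairpin 133 at 24 h lay within 10 kb of a chromosome 12 cluster that includes Mir376c and Mir377. These microRNAs were named after their positions had been seen.

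Another region of the same set lay within 1 Mb of 17 of the 120 regions of hairpin 133 and of 6 of the 89 of hairpin 14, beside 12 of 101 and 5 of 73 crossed regions. Within 10 kb the number was 0 in all 4 sets.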
